A study of Mus musculus with 6 samples.

Results

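The macropinocytosis and actin ruffling machinery was taken as 34 mouse genes, of 49315 gene IDs in the count files. The genes were listed by name from what is known of the pathway and matched by symbol in the authors' deposited table. Earlier results of these data were known when the members were chosen, so the comparisons with all genes below are descriptive. All 34 passed the filter on low counts that left 23989 genes for testing. Their counts ran from 15 to 182620 reads per library, and 3 members, Wasf1, Snx18 and Pak1, had under 100 reads in some library.

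Macropinocytosis is the uptake of fluid and large particles by sheets of membrane that fold back on themselves. Rac and Cdc42 GTPases recruit the WAVE complex and N-WASP, which switch on the Arp2/3 complex, and Arp2/3 nucleates the branched actin that pushes a ruffle outward. PI3-kinase lipids shape the cup, and sorting nexins and CtBP1 (BARS) act as it closes. In endothelium the same parts also serve cell spreading, migration and junction remodelling.

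RNA was sequenced from the endothelium of 3 tumours, each sample coming from MET-106, MET-107 or MET-108. The tumours were raised from 4T1, a mouse mammary carcinoma line, by placing 1000000 cells in an inguinal fat pad of female mice (Balb/c) aged 8 weeks. The tumours grew for 2 weeks, so that mice were 10 weeks old. Both groups came from mice given 1E12 gold nanoparticles of 50 nm, coated with 5K mPEG and carrying Cy5, through the tail vein, with harvest 1 hour later. Cells were depleted of CD45+ cells, enriched for CD31+ cells and sorted by FACS into a nanoparticle positive fraction (NP-positive, n = 3) and a nanoparticle negative fraction (NP-negative, n = 3) of the same tumours. The NP-negative cells were thus exposed cells that did not fall in the positive gate, and no fraction came from an uninjected mouse.

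Libraries held between 20856410 and 58089600 reads counted in genes, and the lowest totals were those of 2 NP-negative libraries. The 10 endothelial markers summed to between 11077 and 13262 counts per 1000000 counted reads (CPM) in NP-positive and between 7425 and 10442 CPM in NP-negative libraries, so the labelled cell type was present in both. The 7 fibroblast markers summed to 56.3, 40.5 and 13.5 CPM in NP-positive and to 3793, 129 and 57.2 CPM in NP-negative libraries, in the order of the tumours' numbers. The 7 epithelial and 4T1 markers ran from 9.005 to 13.0 CPM against 574, 31.3 and 15.8 CPM. The 8 pericyte and smooth muscle markers ran from 21.6 to 67.3 CPM against 805, 229 and 79.2 CPM. The 11 macrophage markers ran from 21.7 to 32.3 CPM against 48.7 to 133 CPM, and no marker of any list was at 0 in every library. The NP-negative library of MET-106 stood apart by these markers, so leading results are also given without it. The part of these other cells in the results below was not tested. In such bulk libraries, fewer cells of a type and less RNA per cell cannot be told apart.

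The members as a whole lay higher in NP-positive cells by a modest amount, with Snx9 and Pak2 well ahead of the other members that lay higher. Their summed level was 14638, 13150 and 14528 CPM in NP-positive libraries and 9604, 9211 and 11274 CPM in NP-negative libraries, in tumour order. Every NP-positive library was above every NP-negative library in this sum, in which a few abundant genes, Msn and Cfl1 first, weigh most. As a share of all gene counts, which no scaling factor touches, the members made up 1.27% ± 0.024 in NP-positive and 1.10% ± 0.104 in NP-negative libraries (SD, n = 3 each).

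No member passed an adjusted p of 0.05 in edgeR's quasi-likelihood test with Benjamini-Hochberg adjustment over the 23989 genes. There, 0.0125% of genes were called higher and 0.0167% lower. At an unadjusted p below 0.05, 12 of 34 members were higher and 0 lower, against 8.01% and 15.4% of the genes tested. Groups did not overlap for 18 members that were higher and for 1, Wasf1, that was lower, against 13.3% and 15.6% of genes. The log2 ratio of NP-positive over NP-negative was above 0 for 29 of 34 members, against 40.8% of genes. Its median was 0.38 over the members and -0.29 over the genes tested.

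This broad lead depended on which genes the scaling rested on, and well expressed genes as a whole also stood high on this scale. In the 3 tumours the members' median log2 ratio was 0.42, 0.46 and 0.26. The median over the 10717 genes with at least 5 CPM in 3 libraries was 0.26, 0.26 and 0.28 on the same scale. In MET-108 the members' median was therefore no higher than that of well expressed genes. When the fit was run on those 10717 genes alone, which left 32 members, the median was 0.12 over the members and -0.02 over the genes. In that fit 3 members were higher at an unadjusted p below 0.05 (Snx9, Pak2 and Actr3, against 6.41% of genes) and 2 lower (Pik3ca and Ezr, against 8.44%). The edgeR quasi-likelihood fit called 0 members after adjustment there too, against 0.112% and 0.523% of genes. Groups did not overlap for 5 members that were higher (11.2% of genes) and 1 that was lower (11.4%), and 22 of the 32 log2 ratios were above 0 (47.4%).

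With upper-quartile scaling 3 members were higher and 4 lower at an unadjusted p below 0.05, against 3.27% and 19.6% of genes, and with total-count scaling 3 and 4, against 2.54% and 21.0%. Groups did not overlap for 6 higher and 2 lower members (6.12% and 20.3% of genes) and for 5 and 3 (4.79% and 23.0%) under the same scalings. With the tumour as a block, 10 members were higher and 0 lower at an unadjusted p below 0.05, against 7.85% and 14.6%. The blocked edgeR fit called 0 members at an adjusted p below 0.05, against 0.00834% higher and 0.0542% lower, and its lowest adjusted p among members was 0.0857. With the block on the 5 CPM genes, 3 were higher and 2 lower at an unadjusted p below 0.05, against 7.45% and 6.66%.

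**Figure D1:**
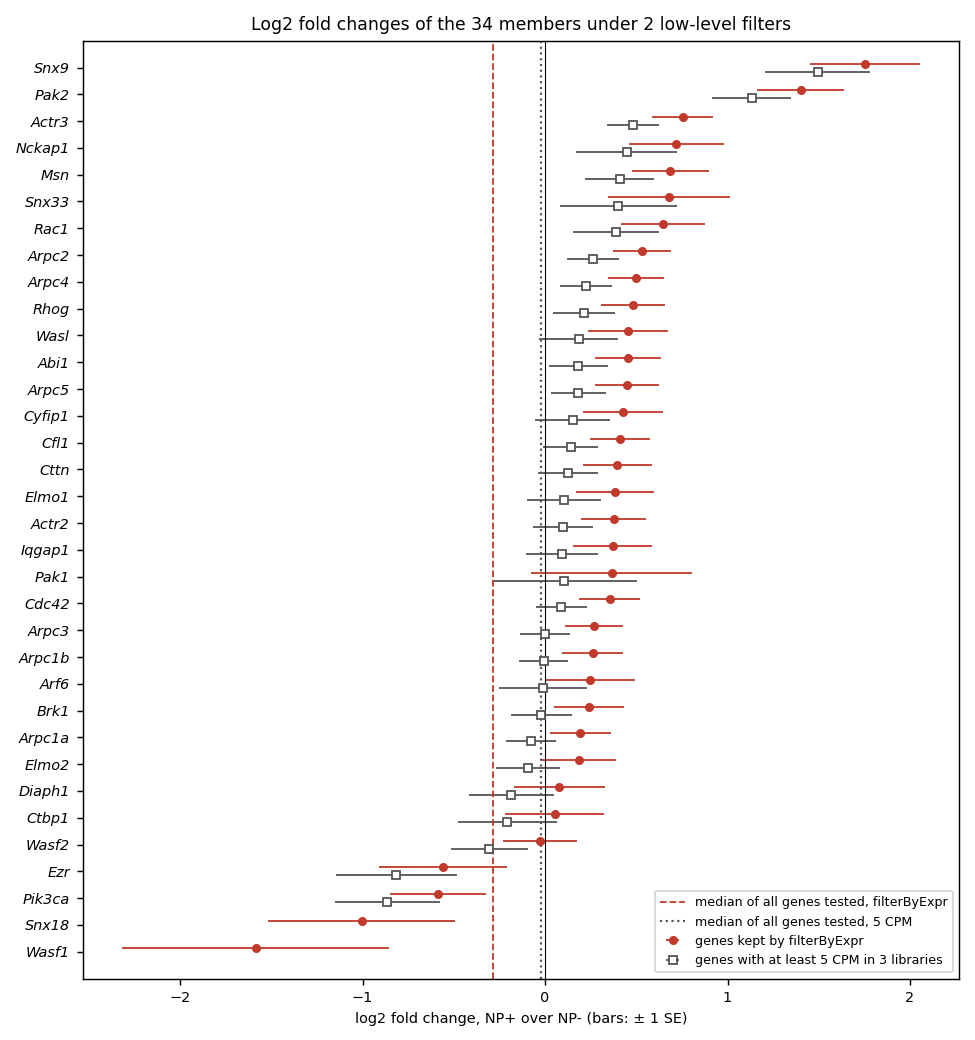
Log2 ratio of NP-positive over NP-negative for each of the 34 members, with bars of 1 standard error, from the test on 23989 genes and from that on 10717 genes with at least 5 CPM in 3 libraries. Snx9 and Pak2 lie farthest to the right in both, each tested member lies further left in the second, and vertical lines mark the medians over all genes tested (-0.29 and -0.02).

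DESeq2 on the same counts called 6 members higher and 0 lower at an adjusted p below 0.05, against 4.03% and 9.86% of genes. The authors' deposited table likewise lists 6 members higher in NP-positive cells below an adjusted p of 0.05, against 3.71% of its genes, and 0 lower, against 9.45%. By the authors' deposited table these are Snx9 (adjusted p 7.7e-05), Pak2 (0.000184), Actr3 (0.00537), Msn (0.0206), Arpc4 (0.0386) and Arpc2 (0.0444). The same 6 genes were called by the DESeq2 test run here. With no low-count filter, edgeR's quasi-likelihood test called 2 members higher, Snx9 and Pak2, against 1.19% of genes.

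Snx9 had the widest difference of the members. Snx9 (ENSMUSG00000002365, GRCm38 chromosome 17, 5841328 to 5931033, plus strand) encodes a sorting nexin with SH3, PX and BAR domains that binds dynamin and N-WASP and bends membrane at closing cups and coated pits. It stood at 46.2, 48.0 and 47.1 CPM in NP-positive libraries, again in tumour order, and at 20.2, 12.3 and 9.35 CPM in the NP-negative ones. The NP-positive libraries were nearly equal and the highest NP-negative library was far below them. The means were 47.1 ± 0.869 and 14.0 ± 5.64 CPM (SD, n = 3 each), a ratio of 3.38. The log2 ratio was 1.75 (standard error, SE, 0.30), with adjusted p = 0.0875 in edgeR's quasi-likelihood test. Without the NP-negative library of MET-106 the log2 ratio was 2.18 (SE 0.22) and the edgeR adjusted p was 0.00753. That fit called 3.48% of all genes higher, where the main test called 0.0125%. With the tumour as a block and the filter at 5 CPM, the edgeR adjusted p was 0.0495, which made Snx9 the single member called in that fit, where 0.317% of genes were called higher and 1.46% lower.

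The other members that act as cups close had smaller or opposite ratios, and their groups overlapped. Snx18, a close relative of Snx9, stood at 4.04, 3.64 and 4.16 CPM in NP-positive and at 11.4, 3.12 and 9.18 CPM in NP-negative libraries, where MET-107 was low and the groups overlapped. Its log2 ratio was -1.01 (SE 0.51) and its edgeR adjusted p was 0.264. Snx33, the third member of the SH3-PX-BAR family, ran from 17.8 to 28.3 CPM against 8.78 to 18.5 CPM, with a log2 ratio of 0.68 (SE 0.33). The ratio of Snx33 kept its sign in all 19 alternatives, at 0.37 to 0.98. Ctbp1, whose product BARS drives membrane fission, ran from 13.8 to 19.7 CPM against 14.1 to 17.6 CPM, with a log2 ratio of 0.05 (SE 0.27).

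Pak2, a kinase activated by Rac and Cdc42 that phosphorylates regulators of actin and myosin, had the next largest ratio among the members that lay higher. Pak2 (ENSMUSG00000022781, chromosome 16, 32016290 to 32079342, minus strand) stood at 284, 226 and 281 CPM in NP-positive and at 134, 91.4 and 74.98 CPM in NP-negative libraries. The lowest NP-positive library lay well above the highest NP-negative one. The means were 264 ± 32.7 and 99.97 ± 30.2 CPM (SD, n = 3 each), a ratio of 2.64. The log2 ratio was 1.401 (SE 0.24), with adjusted p = 0.0875 in edgeR's quasi-likelihood test and 0.0101 without the NP-negative library of MET-106. The fit without that library called 3.48% of all genes higher. Snx9, Pak2 and Actr3 were the 3 members with an unadjusted p below 0.05 in the main test and in each of the 19 alternatives. The alternatives reuse these libraries, and the fit on reads recovered from the deposited table repeats the same counts, so they are not independent. The share of all genes that passed each of these fits was not counted.

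The other effectors and partners of these GTPases had smaller ratios. Pak1, the paralogue of Pak2, stood at 6.90 to 7.43 CPM in NP-positive and 3.30 to 8.69 CPM in NP-negative libraries, and its groups overlapped. Without the NP-negative library of MET-106 the log2 ratio of Pak1 was 0.91 (SE 0.39), with an edgeR adjusted p of 0.144. Elmo1 and Elmo2, scaffolds that pair with DOCK exchange factors to activate Rac, had log2 ratios of 0.38 (SE 0.21) and 0.18 (SE 0.20). Iqgap1, a scaffold that binds Rac and Cdc42, ran from 598 to 880 CPM against 490 to 706 CPM, with a log2 ratio of 0.37 (SE 0.22). Among these 5 genes, Pak2 was the single gene whose groups did not overlap, where 13.3% of all genes tested were higher without overlap.

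**Figure D2:**
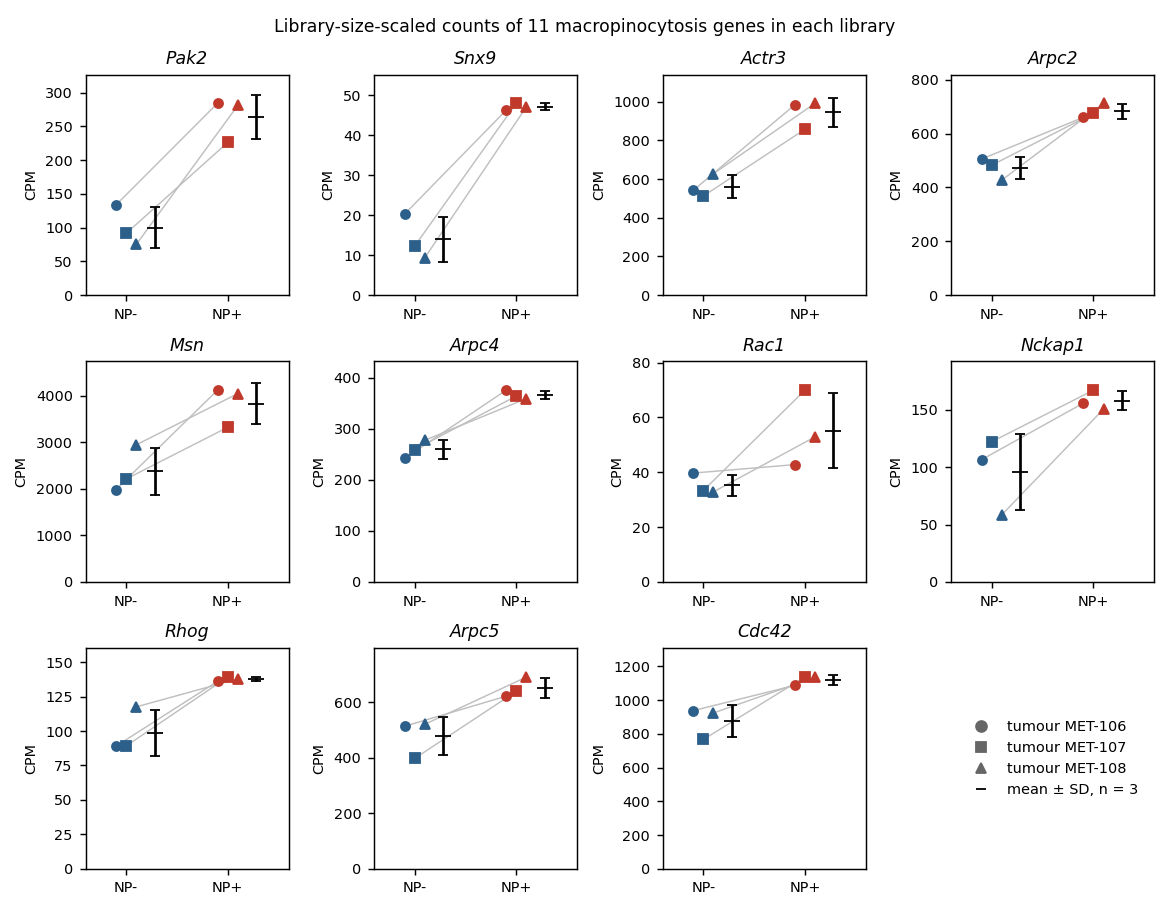
Level in CPM of 11 members in each of the 6 libraries, with NP-negative (NP-) at left and NP-positive (NP+) at right of each panel, grey lines joining fractions of a tumour and bars giving the mean ± SD of 3 libraries. For Snx9 and Pak2 the 3 NP-positive points lie far above the NP-negative points, and for Cdc42 and Arpc5 the groups are close without overlap.

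The 4 GTPases had log2 ratios from 0.25 to 0.65, below those of Snx9 and Pak2, and the ratio of Arf6 turned negative on the 5 CPM genes (-0.01) and by total counts (-0.04). Rac1 (ENSMUSG00000001847, chromosome 5, 143503634 to 143528036, minus strand), the GTPase that starts ruffles, stood at 42.8, 69.9 and 52.9 CPM in NP-positive and at 39.7, 33.3 and 32.8 CPM in NP-negative libraries. The groups did not overlap, but in MET-106 the libraries differed little. Its log2 ratio was 0.65 (SE 0.23), with adjusted p = 0.162 in edgeR's quasi-likelihood test. Of the exon bases counted for Rac1, 51.4% also lie in exons of Daglb on the opposite strand, and the library kit does not mark strand, so Rac1 counts are uncertain.

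Rhog, an activator of Rac through ELMO and DOCK proteins, stood at 136, 139 and 138 CPM in NP-positive and at 89.0, 89.1 and 118 CPM in NP-negative libraries. The NP-positive libraries were nearly the same and the highest NP-negative library was that of MET-108. The log2 ratio of Rhog was 0.48 (SE 0.18), with an edgeR adjusted p of 0.168. Cdc42, which activates N-WASP, stood at 1086, 1136 and 1134 CPM in NP-positive and at 937, 766 and 923 CPM in NP-negative libraries. These groups were close but did not overlap, and the log2 ratio of Cdc42 was 0.35 (SE 0.17), with an edgeR adjusted p of 0.234. Arf6, which acts on membrane recycling and phosphoinositide kinases at ruffles, overlapped between groups at 17.6 to 23.5 against 15.2 to 17.7 CPM.

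Pik3ca, the PI3-kinase catalytic subunit among the members, lay on the other side. It stood at 26.2, 30.6 and 25.3 CPM in NP-positive and at 27.7, 52.8 and 43.1 CPM in NP-negative libraries, lower in each tumour but overlapping across them. Its log2 ratio was -0.59 (SE 0.27), with an edgeR adjusted p of 0.222. Without the NP-negative library of MET-106 it was -0.75 (SE 0.20), with an edgeR adjusted p of 0.0581. Pik3cb, which encodes another catalytic subunit of the same class and is not a member, stood at 36.5, 32.1 and 38.2 CPM against 17.8, 17.3 and 7.10 CPM. For Pik3cb the log2 ratio was 1.34 (SE 0.35), with an edgeR adjusted p of 0.125, so the pair of subunits had ratios of opposite sign.

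The WAVE complex, which carries the Rac signal to Arp2/3, was uneven among its 6 genes, and 2 of them, Nckap1 and Abi1, were higher at an unadjusted p below 0.05, against 8.01% of genes. Neither passed that threshold on the 5 CPM genes, with unadjusted edgeR p-values of 0.144 and 0.296, or by total counts. Nckap1 (ENSMUSG00000027002), its large scaffold subunit, stood at 156, 167 and 151 CPM in NP-positive and at 106.7, 122 and 58.8 CPM in NP-negative libraries. The NP-negative library of MET-108 was the lowest, and no NP-negative library reached the NP-positive ones. The log2 ratio of Nckap1 was 0.72 (SE 0.26), with an edgeR adjusted p of 0.167. Abi1, an adaptor subunit, ran from 185 to 210.4 CPM against 129.55 to 174 CPM, with a log2 ratio of 0.45 (SE 0.18).

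Cyfip1, the subunit that binds active Rac, had a log2 ratio of 0.43 (SE 0.22), and Brk1, the smallest subunit, of 0.24 (SE 0.19). The 2 WAVE proteins themselves differed from these. Wasf2, the WAVE protein with the higher level per kilobase here, stood at 116, 112 and 106.8 CPM against 84.3, 126 and 131 CPM, with a log2 ratio of -0.03 (SE 0.20). Wasf1 stood at 0.412, 0.783 and 0.602 CPM in NP-positive and at 1.52, 2.49 and 1.41 CPM in NP-negative libraries, and was the member whose NP-positive libraries all lay below its NP-negative ones. The log2 ratio of Wasf1 was -1.59 (SE 0.73), on few reads. Wasl, which encodes N-WASP, the Cdc42-dependent activator, ran from 63.4 to 65.1 CPM against 33.4 to 54.4 CPM, with a log2 ratio of 0.46 (SE 0.22).

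The Arp2/3 complex, the nucleator of branched actin, had log2 ratios from 0.19 to 0.75 over its 8 genes. All 8 of its genes were higher in NP-positive cells in each of the 3 tumours, where 20.0% of all genes tested were, but 4 of 8 were when scaled on the genes with at least 5 CPM (17.1% of those genes) and 3 of 8 by total counts (7.73%). Groups did not overlap for 7 of 8, against 13.3% of genes, or for 3 of 8 under either of those scalings, against 11.2% and 4.79%. At an unadjusted p below 0.05, 4 of 8 were higher, against 8.01% of genes. That count was 3 of 8 with the tumour as a block, and 1 of 8, Actr3, on the 5 CPM genes, with upper-quartile scaling and by total counts. Without the NP-negative library of MET-106 the median log2 ratio of the 8 genes was 0.44. In that fit the groups did not overlap for 8 of 8, but the share over all genes also rose, from 13.3% to 20.6%. The summed level of the 8 genes was 4383, 4133 and 4487 CPM in NP-positive and 3260, 2913 and 3327 CPM in NP-negative libraries. The median log2 ratio of the 8 genes was 0.41, and it was 0.14, with 6 of 8 above 0, in the fit at 5 CPM. The summed level was 1.37 times as high in NP-positive cells, next to 1.35 times for the 10 endothelial markers.

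Actr3 (ENSMUSG00000026341, chromosome 1, 125392905 to 125435727, minus strand) encodes Arp3, 1 of the 2 actin-related subunits that seed a new filament. It stood at 984, 858 and 992 CPM in NP-positive and at 541, 512 and 628 CPM in NP-negative libraries, with a wide gap between groups. The log2 ratio was 0.75 (SE 0.17), with adjusted p = 0.110 in edgeR's quasi-likelihood test and 0.0459 without the NP-negative library of MET-106. The fit without that library called 3.48% of all genes higher, and on the 5 CPM genes the edgeR adjusted p of Actr3 was 0.181. Actr2, which encodes Arp2, the partner subunit, stood at 263, 221 and 269.7 CPM against 168, 193 and 219.9 CPM, where the NP-positive library of MET-107 and the NP-negative library of MET-108 nearly met. Its log2 ratio was 0.38 (SE 0.18).

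The structural subunits followed at smaller ratios. Arpc2 (ENSMUSG00000006304), a core subunit that holds the mother filament, stood at 661, 675 and 713 CPM against 506, 483 and 428 CPM, with a log2 ratio of 0.53 (SE 0.16) and an edgeR adjusted p of 0.141. Arpc4 (ENSMUSG00000079426), which pairs with Arpc2 in the core, stood at 376, 364 and 359 CPM against 242, 259 and 278 CPM, with a log2 ratio of 0.50 (SE 0.15) and an edgeR adjusted p of 0.144. Both sets were well separated between groups. Arpc5 (ENSMUSG00000008475) stood at 622, 639 and 691 CPM against 513, 398 and 521 CPM, with a log2 ratio of 0.45 (SE 0.18) and an edgeR adjusted p of 0.180. Arpc3, Arpc1b and Arpc1a had the smallest ratios of the complex, at log2 values of 0.27 (SE 0.16), 0.26 (SE 0.17) and 0.19 (SE 0.17), which turned to -0.03, -0.04 and -0.11 with total-count scaling. Arpc4 shares 12.2% of its exon bases with Ttll3 on the same strand, and Arpc1b shares 18.2% with Pdap1 on the opposite strand.

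The mix within the complex can be read without any library scaling, as each gene's share of the 8 summed levels per kilobase of exon. Actr3 made up 15.01%, 13.5% and 14.6% in NP-positive and 10.9%, 11.5% and 12.6% in NP-negative libraries, with no overlap. Arpc3 went the other way, at 12.3%, 13.0% and 12.1% against 14.3%, 13.6% and 14.5%. Arpc1b did likewise, at 11.2% to 12.1% against 12.5% to 13.8%. Arpc5 had 20.2% ± 0.767 and 20.2% ± 1.72 (SD, n = 3 each), equal within the spread between libraries. These shares are a description with no test.

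The promoters of this complex are shown because its 8 genes had log2 ratios of 1 sign in each tumour on the main scale. RefSeq start sites on GRCm38.p6 were found for 26 of the 34 members and for all 8 Arp2/3 genes, and the 250 bases before each start were searched on both strands. Snx9, Pak2, Rac1 and Nckap1 are among the members with no window. The ETS core CCGGAAG, the letters bound by ETS factors, was found in 5 of the 8 windows and in 8 of the 26, against 7.83% of all 27025 genes with a window. The shares of genes given for these motifs cover genes at any level, and no share over well expressed genes was taken. The 4 windows printed hold this core in capitals and end before the gene body given in the count files; other capitals mark the GC box GGGCGG, the CCAAT box CCAAT and the CArG box, each also as its reverse complement, and no match overlapped another. They are those of Actr3 (chr1:125435728-125435977, minus strand), Actr2 (chr11:20112952-20113201, minus), Arpc3 (chr5:122391628-122391877, plus) and Arpc4 (chr6:113377863-113378112, plus), each 5′ to 3′ toward the start.
Actr3: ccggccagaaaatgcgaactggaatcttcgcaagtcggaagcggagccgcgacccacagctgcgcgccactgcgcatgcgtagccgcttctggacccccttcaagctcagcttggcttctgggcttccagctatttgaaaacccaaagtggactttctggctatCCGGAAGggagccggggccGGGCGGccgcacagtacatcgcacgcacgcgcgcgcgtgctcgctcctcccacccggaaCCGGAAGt
Actr2: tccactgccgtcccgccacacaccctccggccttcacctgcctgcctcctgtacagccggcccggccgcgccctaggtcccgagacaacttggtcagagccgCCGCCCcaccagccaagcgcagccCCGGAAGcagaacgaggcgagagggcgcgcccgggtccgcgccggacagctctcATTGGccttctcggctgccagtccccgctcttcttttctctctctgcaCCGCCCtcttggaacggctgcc
Arpc3: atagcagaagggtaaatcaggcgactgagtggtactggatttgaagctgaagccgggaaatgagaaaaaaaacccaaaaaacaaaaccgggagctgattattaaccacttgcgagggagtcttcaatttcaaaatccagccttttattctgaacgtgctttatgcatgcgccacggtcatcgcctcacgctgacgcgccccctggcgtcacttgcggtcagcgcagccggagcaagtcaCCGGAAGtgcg
Arpc4: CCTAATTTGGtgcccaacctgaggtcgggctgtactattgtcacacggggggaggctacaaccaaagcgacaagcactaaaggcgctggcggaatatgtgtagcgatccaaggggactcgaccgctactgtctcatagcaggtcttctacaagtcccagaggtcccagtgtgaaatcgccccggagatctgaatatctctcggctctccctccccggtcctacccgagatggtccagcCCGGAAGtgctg

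In Actr3 the second ETS core lies a single base from the start, and in Arpc3 and Arpc4 the core also lies close to it. The GC box GGGCGG was in 5 of the 8 Arp2/3 windows and in 19 of the 26 member windows, against 35.4% of genes. CCAAT was in 2 of 8 and 11 of 26, against 37.5%. The AP-1 letters TGANTCA were in 0 of 8 and 2 of 26, against 7.82%, and the CArG box, bound by serum response factor, was in 1 of 8 and 1 of 26, against 1.62%. A match is a description of letters in the window and not a bound site.

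Filament turnover and membrane linkage were represented by a few very abundant genes. Cfl1, the filament-severing cofilin of non-muscle cells, stood at 1508, 1601 and 1555 CPM against 1098, 1098 and 1312 CPM, with a log2 ratio of 0.41 (SE 0.17) and an edgeR adjusted p of 0.189. Cttn, cortactin, which stabilises Arp2/3 branches, overlapped between groups at 277 to 316 against 190.2 to 278 CPM, with a log2 ratio of 0.40 (SE 0.19). Diaph1, a formin that elongates unbranched filaments, ran from 21.2 to 21.9 CPM against 16.4 to 25.9 CPM, with a log2 ratio of 0.08 (SE 0.25).

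The 2 linkers of membrane to cortical actin had ratios of opposite sign. Msn (ENSMUSG00000031207, chromosome X, 96096042 to 96168552, plus strand) encodes moesin, the linker with the higher level per kilobase here. It stood at 4125, 3326 and 4052 CPM against 1986, 2214 and 2949 CPM, and its groups did not overlap. The log2 ratio of Msn was 0.69 (SE 0.21), with an edgeR adjusted p of 0.143. Ezr, ezrin, the relative of moesin known from epithelial cells, stood at 46.4, 36.8 and 50.8 CPM against 107.4, 42.4 and 47.4 CPM. Its log2 ratio was -0.56 (SE 0.35), and it was 0.04 (SE 0.21) without the NP-negative library of MET-106, in which the summed epithelial and 4T1 markers were at 574 CPM.

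**Figure D3:**
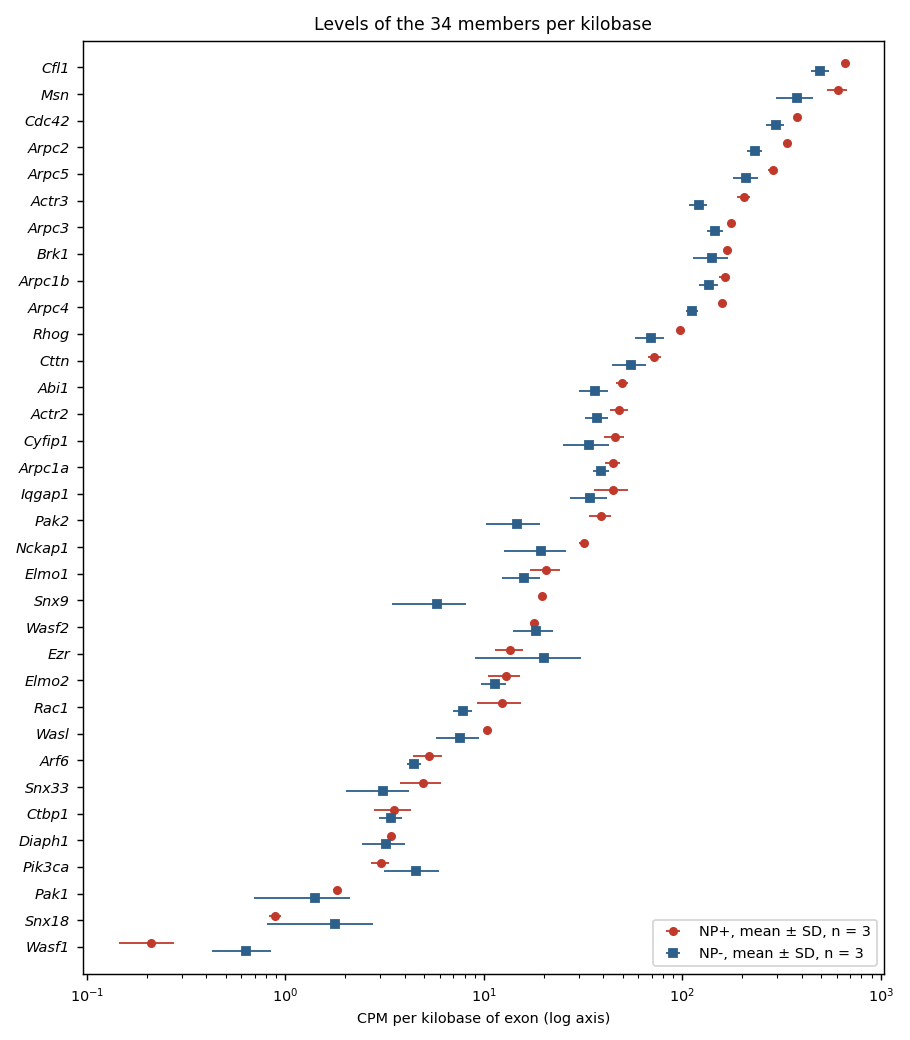
Mean level of each member in CPM per kilobase of exon, on a log axis, in NP-positive and NP-negative libraries with the SD over 3 libraries. Cfl1, Msn, Cdc42 and Arpc2 are the 4 highest in both fractions and Wasf1 is the lowest in both.

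Set per kilobase of exon so that genes can be compared, the members spanned more than 3 orders of magnitude. Cfl1 (660.5 CPM per kilobase in NP-positive and 497 in NP-negative), Msn (606 and 377) and Cdc42 (377 and 295) led, and 6 of the 10 highest members in NP-positive cells were Arp2/3 genes. Wasf1 was lowest, at 0.210 and 0.634 CPM per kilobase. Cfl1, Msn, Cdc42, Arpc2 and Arpc5 held ranks 1 to 5 in both fractions, whereas Snx9 ranked 21 of 34 in NP-positive and 26 in NP-negative cells. Pak2 ranked 18 and 22, Actr3 6 and 9, and Ezr 23 and 18.

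Because several members have a paralogue, the share of 1 paralogue in its pair was compared in 9 pairs. Whether the genes of a pair can replace each other was not tested. The share is taken within a library from counts per kilobase, so it does not depend on scaling. Snx9 made up 95.5%, 96.05% and 95.4% of Snx9 plus Snx18 in NP-positive and 76.5%, 87.9% and 65.3% in NP-negative libraries. The NP-positive shares were nearly equal and the NP-negative ones scattered below them, a mean difference of 19.1 percentage points with an SD of 11.01 over the 3 tumours. Pak1 made up 4.12%, 4.99% and 4.35% of Pak1 plus Pak2 against 10.1%, 8.01% and 7.04%.

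Ezr made up 2.12%, 2.08% and 2.36% of Ezr plus Msn against 9.42%, 3.56% and 3.00%. Wasf1 made up 1.17% ± 0.370 of Wasf1 plus Wasf2 against 3.42% ± 0.982 (SD, n = 3 each). Cyfip1 made up 99.4% ± 0.0819 of Cyfip1 plus Cyfip2 against 98.2% ± 0.729, Arpc5 93.2% ± 0.241 of Arpc5 plus Arpc5l against 91.0% ± 0.977, and Elmo1 61.6% ± 0.927 of Elmo1 plus Elmo2 against 58.1% ± 3.38. In these 7 pairs the groups did not overlap, which gives an exact two-sided permutation p of 0.1, the smallest that 3 against 3 libraries allow, and 0.129 adjusted over the 9 pairs. That test treats the libraries as unpaired, and exchanging fractions within a tumour, an exact test added after seeing the data, gives a two-sided p of 0.25 for each of the 7, the smallest that 3 tumours allow. Without the NP-negative library of MET-106 the difference kept its sign in these 7 pairs, but it went from -3.14 to -1.09 percentage points for Ezr and from 3.54 to 1.59 for Elmo1. The share of Arpc1a in Arpc1a plus Arpc1b was 21.4% ± 0.464 against 22.3% ± 1.12, an exact permutation p of 0.3. The share of Abi1 in Abi1 plus Abi2 was 88.1% ± 0.910 against 87.8% ± 1.17, an exact permutation p of 0.7, and for both of these pairs the groups overlapped.

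**Figure D4:**
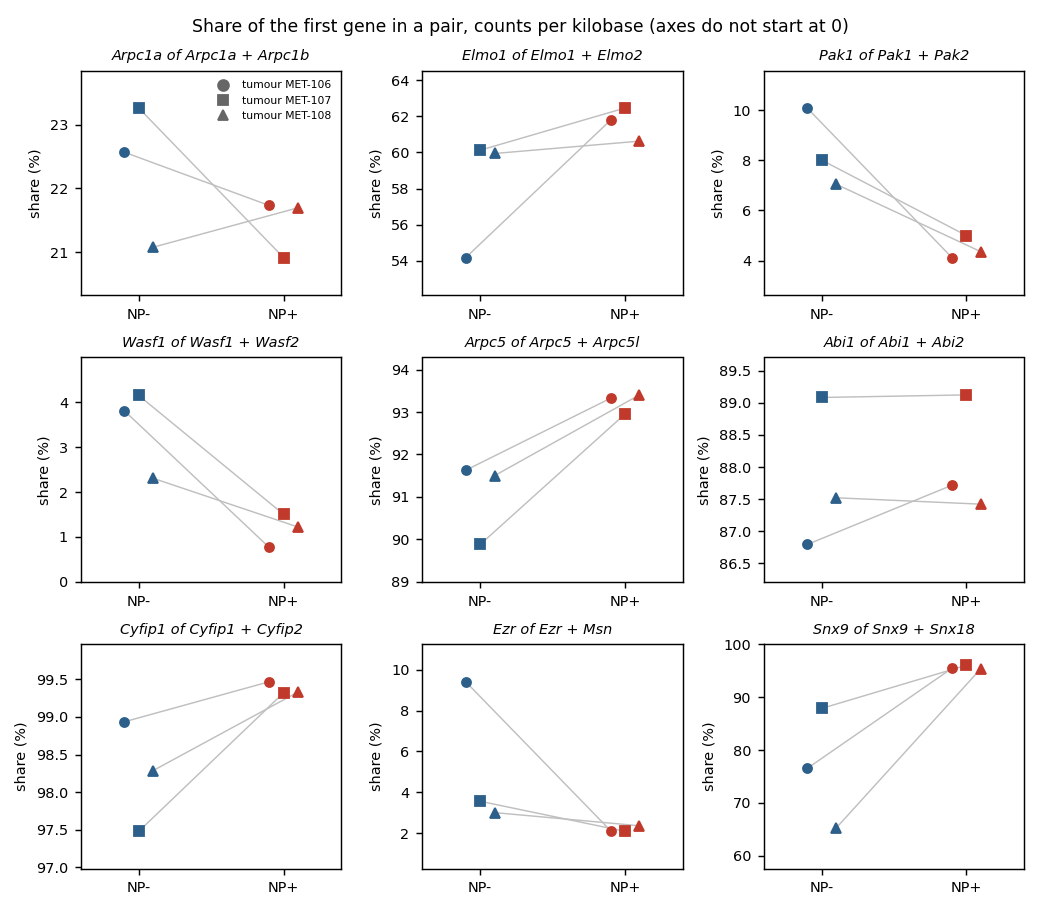
Share in percent of the first gene in each of 9 paralogue pairs, from counts per kilobase, in the 3 NP-positive and 3 NP-negative libraries. The Snx9 share is near 95.6% in NP-positive libraries and spread from 65.3% to 87.9% in NP-negative ones.

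The members were also more alike between tumours in NP-positive than in NP-negative cells. The median coefficient of variation over 3 libraries was 7.21% in NP-positive and 19.6% in NP-negative cells, and 30 of 34 members (88.2%) were wider in the latter. Among the 10717 genes with at least 5 CPM in 3 libraries, the medians were 11.8% and 26.0%, and 83.0% of genes were wider in NP-negative cells. The wider scatter of NP-negative libraries is therefore shared with well expressed genes in general, and these libraries also held the 2 lowest total counts. Within single tumours, 26, 30 and 28 of the 34 members were higher in the NP-positive fraction, against 44.1%, 42.2% and 46.7% of genes. Over all 3 tumours, 24 members were higher each time, against 20.0% of genes, and Pik3ca and Wasf1 were lower each time, against 30.2%. Those shares cover genes at any level. Well expressed genes also stood high on this scale, with median log2 ratios of 0.26, 0.26 and 0.28 in the 3 tumours.

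**Figure D5:**
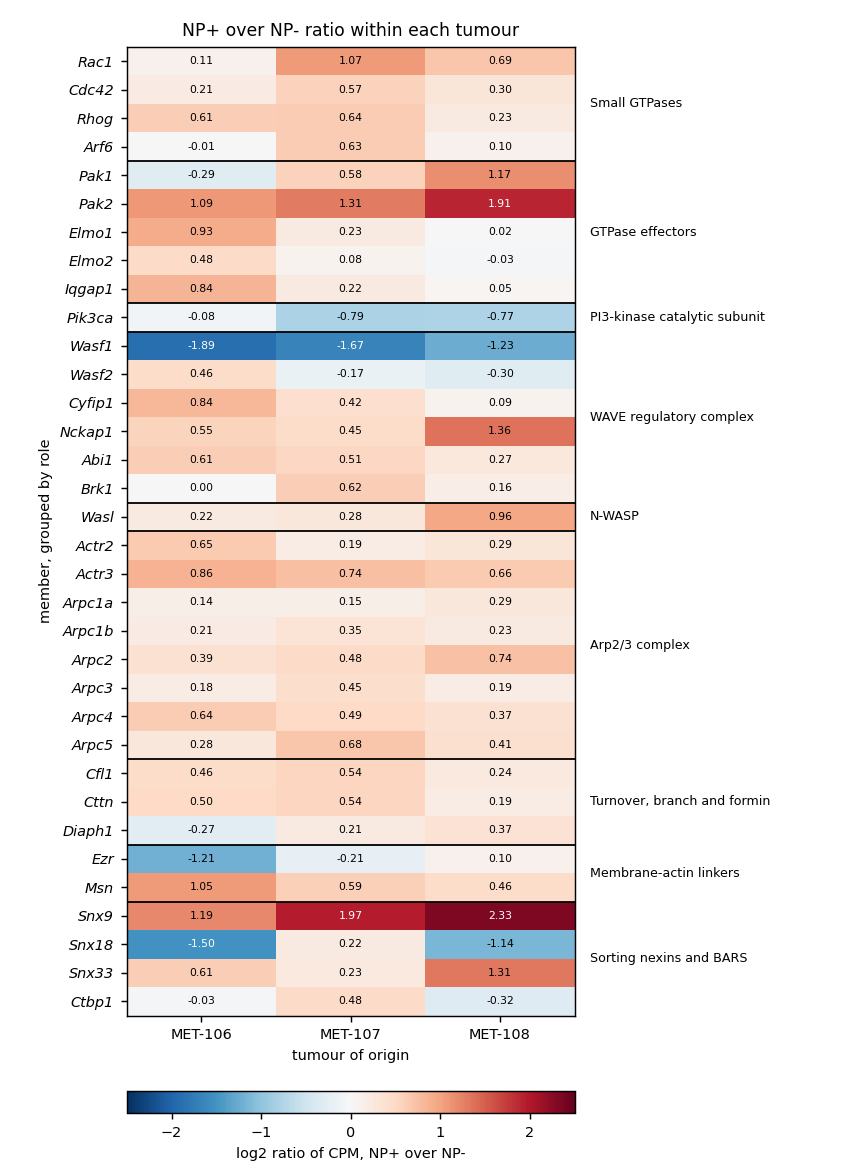
Heat map of the log2 ratio of NP-positive over NP-negative CPM for each of the 34 members (rows, by role) within each of the 3 tumours (columns), with red above 0 and blue below. Snx9 (1.19, 1.97 and 2.33) and Pak2 (1.09, 1.31 and 1.91) are the highest and next highest in each tumour, and Wasf1 is the lowest in each.

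Around the members, 8 further lists of pathway genes were read, and none of their genes passed an adjusted p of 0.05 in the edgeR quasi-likelihood test on 23989 genes. The counts for these lists are on that main scale, on which well expressed genes as a whole also stood high. The shares of all genes beside them cover genes at any level. Of 18 exchange factors, which load Rac and Cdc42 with GTP, 4 were higher and 4 lower at an unadjusted p below 0.05, with a median log2 ratio of 0.27, where 8.01% and 15.4% of all genes were. Dock4, an exchange factor for Rac and Rap, stood at 131, 102 and 119.8 CPM against 45.0, 50.7 and 41.7 CPM. Its log2 ratio was 1.36 (SE 0.18), with an edgeR adjusted p of 0.0600. In the edgeR fit on the 5 CPM genes Dock4 rose, at an adjusted p of 0.0416, against 0.112% of genes called higher. Prex1, a Rac exchange factor, had a log2 ratio of 1.01 (SE 0.27).

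Of 15 GTPase-activating and inhibitory genes, 4 were higher and 2 lower at an unadjusted p below 0.05, against 8.01% and 15.4% of all genes. Arhgap31, an activating protein for Rac1 and Cdc42, had a log2 ratio of 0.76 (SE 0.25), Arhgdia, a cytosolic inhibitor that holds small GTPases such as Rac, of 0.51 (SE 0.18), and Gmfb, which debranches Arp2/3 networks, of 0.49 (SE 0.20). Of 16 further small GTPases tested, 5 were higher and 1 lower, against the same shares of genes. Rhob, an endosomal small GTPase, stood at 56.3, 71.6 and 68.04 CPM against 24.2, 24.7 and 38.9 CPM, with a log2 ratio of 1.16 (SE 0.24). Rras had a log2 ratio of 1.38 (SE 0.35) and Arf1 of 0.42 (SE 0.17).

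Of 20 paralogues of the member complexes, 4 were higher and 3 lower at an unadjusted p below 0.05, against 8.01% and 15.4% of all genes. Pak4, a Cdc42 effector kinase, had a log2 ratio of 1.28 (SE 0.26), Rdx, radixin, the third linker of the moesin family, of 1.16 (SE 0.37), and Hcls1, the blood-cell relative of cortactin, of 0.82 (SE 0.27). Rdx thus stood with Msn rather than with Ezr. Of 29 genes of filament assembly, capping and turnover, 8 were higher and 1 lower, against the same shares of genes. Fscn1, the bundling protein fascin, had a log2 ratio of 1.10 (SE 0.34), the formin Fmnl3 of 1.09 (SE 0.23) and Capza1, a capping subunit, of 0.54 (SE 0.16).

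Of 19 phosphoinositide genes, 5 were higher and 2 lower at an unadjusted p below 0.05, against 8.01% and 15.4% of all genes. Plcg1 and Plcg2, which cleave the phosphoinositide PIP2, had ratios of opposite sign, with log2 values of 0.80 (SE 0.21) and -2.17 (SE 0.51). Of 15 inducing receptors, kinases and ion exchangers, 5 were higher and 5 lower, against the same shares of genes, with a median log2 ratio of -0.66. Yes1, a Src-family kinase, had a log2 ratio of 1.18 (SE 0.22), whereas the receptors Pdgfra and Axl had log2 ratios of -3.52 (SE 0.67) and -2.86 (SE 0.66). Pdgfra is also among the 7 fibroblast markers, and it stood at 24.8 CPM and Axl at 98.8 CPM in the NP-negative library of MET-106. Of 14 genes of macropinosome maturation, 3 were higher and 1 lower, again against those shares. Rab5a, the early endosome GTPase, stood at 47.6, 59.5 and 55.7 CPM against 31.9, 10.9 and 3.73 CPM, with a log2 ratio of 1.80 (SE 0.62), and the tubulating nexins Snx2 and Snx6 had log2 ratios of 0.54 (SE 0.19) and 0.47 (SE 0.16).

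The members' lead was of the same order as that of other uptake routes. Of 31 clathrin genes, 10 were higher and 2 lower at an unadjusted p below 0.05, against 8.01% and 15.4% of genes, with a median log2 ratio of 0.34, and 0.07 in the fit at 5 CPM. Of 12 caveolar genes tested, 4 were higher and 0 lower, against the same shares of genes, with medians of 0.40 and 0.14. The matching medians of the 34 members were 0.38 and 0.12, and the differences between lists were not tested. Ap2a1, Ap2a2 and Dnm2, for the alpha adaptins and dynamin of coated pits, had log2 ratios of 0.89 (SE 0.23), 1.23 (SE 0.29) and 0.63 (SE 0.17). Plvap, which forms the diaphragms of caveolae and fenestrae, stood at 1410, 1952 and 1710 CPM against 585, 167 and 134 CPM, with a log2 ratio of 2.52 (SE 0.52). Ehd4 and Pacsin2, which shape caveolar necks, had log2 ratios of 1.01 (SE 0.39) and 0.53 (SE 0.17).

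The genes of the sorting markers are set beside these ratios. Pecam1, which encodes CD31, stood at 3812, 2815 and 3245 CPM against 1931, 2303 and 2825 CPM, with a log2 ratio of 0.48 (SE 0.21). That ratio is similar in size to the 0.41 median of the Arp2/3 genes, below the 1.75 of Snx9 and the 1.401 of Pak2. Ptprc, which encodes CD45, stood at 3.71, 5.61 and 4.14 CPM against 10.2, 25.7 and 5.89 CPM, with a log2 ratio of -1.63 (SE 0.54). Without the NP-negative library of MET-106, which held the most fibroblast and epithelial reads, 16 members were higher and 1 lower at an unadjusted p below 0.05, against 12.3% and 22.4% of genes. Groups then did not overlap for 24 higher and 3 lower members, against 20.6% and 35.3%. In that fit Snx9, Pak2 and Actr3 rose at an adjusted p below 0.05 in edgeR's quasi-likelihood test, against 3.48% of genes. Without both libraries of MET-108, 4 members were higher at an unadjusted p below 0.05 (Snx9, Pak2, Actr3 and Rhog), against 4.31% of genes.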

How the data were processed

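Libraries were made with SMART-Seq v4, which marks neither strand nor molecules, and sequenced as paired reads, per the labels' protocols. Trimmomatic 0.036, STAR 2.5.2b, featureCounts of Subread 1.5.2, DESeq2 and GRCm38 (mm10) are named in the submitters' processing notes. Strand and multi-mapping settings and the annotation version were not given in the sources used here. The deposited files hold whole-number counts per gene and library, used as deposited. The authors' deposited table also holds a signal per library (counts divided by a size factor), log2 fold changes and p-values. Of its 156426 signal values, 100% gave whole reads within 0.01 reads, and edgeR on those recovered reads called 7 genes.

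Differences were tested with edgeR's quasi-likelihood test (edgeR 4.0.16, limma 3.58.1, DESeq2 1.42.0, R 4.3.3) on 6 libraries, with TMM scaling, filterByExpr (minimum count 10), no block, and Benjamini-Hochberg adjustment over 23989 genes. The CPM printed use TMM-scaled totals of the tested genes. The SE is the log2 ratio divided by the square root of F. Fractions share a tumour by the labels; the correlations of same-tumour deviations were 0.24, 0.19 and 0.06. Animals are named as tumours, and p-values measure the spread between these samples. Reads carry no molecular identifiers. Other runs used a tumour block, DESeq2, limma-voom, other scalings or filters, or left out a library or tumour. Only the edgeR fit, with and without the tumour block, was also run on simulated counts. These had the same spread setting in both groups, no tumour effect and changes larger than most members' ratios. That run therefore does not show how the tests behave on these libraries. Exon overlaps come from the exon positions given in the count files. By these, 10 of 34 members share exon bases with another gene. The rule for named genes gives full statistics for Rac1, Cdc42 and the 10 members with the smallest unadjusted p, and for up to 3 genes of each other list by smallest unadjusted p and a mean of at least 5 CPM. Values per library of other members (such as Snx18, Pik3ca, Wasf1, Wasf2, Actr2, Cfl1 and Ezr) and of single paralogues were chosen for print after they were seen. A gene that this rule names in the exchange-factor list is not reported here. Pathway and marker lists and members were chosen with earlier results of these data known. Every marker list was read: neutrophil markers summed to 4.20 to 6.32 CPM in NP-positive and 7.23 to 85.6 CPM in NP-negative libraries, lymphocyte markers to 4.53 to 5.37 and 15.003 to 35.4 CPM, platelet markers to 9.26 to 10.7 and 9.11 to 16.5 CPM, and erythroid markers to 8.63 to 14.9 and 3.28 to 55.5 CPM.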

Additional observations from a re-analysis of the deposited data

How the results depend on the processing

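Snx9, Pak2 and Actr3 kept their direction and an unadjusted p below 0.05 in the main test and all 19 alternatives. These fits share libraries, the fit on recovered reads repeats the main counts, and the matching share of all genes was not counted. For the other members the count past that threshold depended on the scaling. At an adjusted p below 0.05, members called higher numbered 0 in the main test, 6 by DESeq2, 2 with no low-count filter, 1 with the replicate block on the genes with at least 5 CPM in 3 libraries (added after seeing the data), 0 to 3 without single libraries and 0 without any tumour. The replicate block alone called 0 higher and 0 lower, with 10 higher at an unadjusted p, and changed no other call.

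At an unadjusted p (12 higher, 0 lower) the counts were 3 and 4 with upper-quartile scaling, 3 and 4 by total counts, 3 and 2 on the 5 CPM genes and 3 and 2 with the block there, and DESeq2 had 1 lower. Leaving out single libraries gave 7 to 18 higher and 0 to 1 lower. Leaving out a tumour gave 4 without MET-108, 7 without MET-107 and 15 without MET-106, with up to 1 lower. Over all genes the shares were 12.3% higher and 22.4% lower without the NP-negative library of MET-106, and 4.31% higher without both libraries of MET-108. No share over all genes was taken for the other leave-outs, so their counts at any threshold are not a result about the members. Groups not overlapping (18 higher, 1 lower) became 6 and 2, 5 and 3, 5 and 1, and 5 and 1 in the same 4 settings, with 1 to 4 lower under leave-outs. The members' median log2 ratio (0.38) was 0.13, 0.076, 0.12 and 0.14 in these settings and 0.58 without a filter. It was 0.33 to 0.49 without single libraries, 0.57 without MET-106 and 0.51 without MET-108. The medians over all genes were -0.53, -0.59, -0.020, 0.0075 and -0.69.

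Log2 ratios changed sign in those 4 settings for Elmo2 (-0.075, -0.12, -0.092, -0.093), Arpc1a (-0.052, -0.11, -0.077, -0.077), Brk1 (-0.0023, -0.049, -0.021, -0.0098), Diaph1 (-0.15, -0.22, -0.19, -0.17) and Ctbp1 (-0.19, -0.23, -0.21, -0.23). They did so in the last 3 for Arf6 (-0.040, -0.011, -0.033) and Arpc1b (-0.035, -0.0076, -0.0056), and by total counts for Arpc3 (-0.027). Wasf2 turned positive by DESeq2 (0.039), limma-voom (0.026), RLE scaling (0.039), without a filter (0.19), without MET-107 (0.045) and without MET-108 (0.22). Without single libraries the range spanned 0 for Wasf2 (-0.15 to 0.14), Diaph1 (-0.037 to 0.34), Ezr (-0.79 to 0.044), Ctbp1 (-0.096 to 0.27) and the Abi1 share difference (-0.23 to 0.93 percentage points). Ezr was 0.16 without MET-106 and Ctbp1 -0.19 without MET-107. From raw counts the share differences were -1.06 points for Wasf1 and 3.79 for Arpc5. The cause was not tested. Few reads limit Wasf1, Snx18 and Pak1.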
